A study of Homo sapiens with 21 samples.

Results

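The 8 enzymes described here make serine and pass its carbon into the folate pools: PHGDH, PSAT1 and PSPH of the serine synthesis pathway, SHMT1 and SHMT2, and the folate dehydrogenases and synthetases MTHFD1, MTHFD2 and MTHFD1L. They were taken from the raw count table by matching Ensembl identifiers, without their version, to these symbols. Each symbol matched 1 identifier, giving 8 genes of the 42339 in the table. Their levels were compared across 21 RNA-seq libraries of BT-549 cells, a triple-negative breast cancer (TNBC) line, in 7 groups of 3.

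The 2D cells were unmodified BT-549 cells grown as monolayers in RPMI1640 with serum and insulin. The 3D cells, labelled as control, were unmodified cells grown as passage 6 mammospheres, which are spheres kept in MammoCult medium in ultra-low attachment plates, so that growth format and medium cannot be told apart in 3D vs. 2D cells. Another group of passage 6 mammospheres received 0.75 umol/L GO-203, a cell-penetrating peptide that inhibits MUC1-C. Passage 6 tet-MUC1shRNA and passage 8 tet-MYCshRNA mammospheres carried a doxycycline (DOX)-inducible shRNA and were treated with 0.1% DMSO as vehicle or with 500 ng/ml DOX. Each target was silenced by 1 shRNA, carried on a puromycin-selected lentiviral vector. A control shRNA with DOX was not analysed here, so DOX and silencing cannot be told apart. The 3 libraries of a group were numbered samples that no label tied to a clone or a day, and the p-values therefore measure the spread between these samples.

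Serine is built from the glycolytic intermediate 3-phosphoglycerate in a chain of 3 enzymes, and rapidly growing cells either make it or import it. SHMT enzymes then split serine to glycine and hand a carbon unit to tetrahydrofolate. The mitochondrial arm (SHMT2, MTHFD2, MTHFD1L) oxidizes that unit and exports it as formate, and the cytosolic enzymes (SHMT1, MTHFD1) use it for purines, thymidylate and methionine. PHGDH, PSAT1, SHMT2 and MTHFD2 are textbook targets of ATF4, the transcription factor of the amino acid response, and several enzymes of the folate arm are described as MYC targets.

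The libraries held between 38026597 and 99751717 counts. Levels are CPM, the count of a gene scaled to the total count of its library and then over all 21 libraries. The line is labelled as epithelial breast, but of 5 epithelial markers EPCAM reached no more than 0.125 CPM, KRT19 0.103, KRT18 0.974, KRT8 1.505 and CDH1 1.513 CPM in any library. The mesenchymal gene VIM stood at 1076 CPM or more, and ESR1 and PGR at 1.48 CPM or less, while ERBB2 transcript was at 18.4 to 42.0 CPM. DOX replicate 1 of the tet-MYCshRNA line stood apart from its group. The chi-square per degree of freedom over genes was 52.8 and 36.3 against the other two libraries, beside 4.36 to 21.04 for all other pairs of replicates. MUC1 and MYC followed the labels of the silenced lines. MUC1 was at 101, 83.2 and 86.6 CPM with vehicle and at 19.7, 21.2 and 23.3 CPM with DOX in the tet-MUC1shRNA cells. MYC fell less, from 439, 418 and 386 CPM to 244, 279 and 297 CPM in the tet-MYCshRNA cells. Each target also moved in the other line, where MUC1 rose with MYC silencing from 69.0 ± 3.84 to 167 ± 27.7 CPM (log2 fold change 1.25, edgeR adjusted p = 5.06e-06) and MYC rose with MUC1 silencing by 0.25 on the log2 scale (edgeR adjusted p = 5.01e-05).

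The promoter of each enzyme was read from RefSeq for the GRCh38.p14 build, 250 bases before to 50 bases after the start site. Windows were matched for 6 of the 8 enzymes, and those of PSPH and SHMT2 were not analysed here. They were searched on both strands for the E-box CACGTG, the core bound by MYC-MAX dimers, and for TGATGNAA, the core of the C/EBP-ATF response element. The E-box letters occurred in 7.26% of the 35116 windows of this length and the C/EBP-ATF letters in 3.62%. Among the enzymes, MTHFD1L and MTHFD1 held an E-box, MTHFD1L held a C/EBP-ATF core as well, and the windows of PHGDH, PSAT1, SHMT1 and MTHFD2 held neither motif. MTHFD1L and PHGDH are printed from 5′ to 3′ up to the start site, since they moved most under MYC silencing and under MUC1 silencing respectively, with MTHFD1 and PSAT1 for comparison. Capitals mark the motif letters. MTHFD1L, chr6:150866236-150866485, + strand, has the E-box at position -154 from the start site and the C/EBP-ATF core at -129:
MTHFD1L: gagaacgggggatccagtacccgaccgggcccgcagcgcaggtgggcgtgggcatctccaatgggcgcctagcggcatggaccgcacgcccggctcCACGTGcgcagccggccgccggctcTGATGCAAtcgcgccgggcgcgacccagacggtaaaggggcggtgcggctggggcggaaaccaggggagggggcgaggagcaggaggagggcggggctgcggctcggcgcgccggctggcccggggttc
MTHFD1, chr14:64388103-64388352, + strand, has the E-box at position -15:
MTHFD1: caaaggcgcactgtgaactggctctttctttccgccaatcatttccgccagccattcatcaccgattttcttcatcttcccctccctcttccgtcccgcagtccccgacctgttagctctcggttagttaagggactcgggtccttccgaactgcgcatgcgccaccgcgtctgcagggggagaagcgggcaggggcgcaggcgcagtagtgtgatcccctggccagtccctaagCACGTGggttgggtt
PHGDH, chr1:119711684-119711933, + strand, from the start site inside the annotated gene:
PHGDH: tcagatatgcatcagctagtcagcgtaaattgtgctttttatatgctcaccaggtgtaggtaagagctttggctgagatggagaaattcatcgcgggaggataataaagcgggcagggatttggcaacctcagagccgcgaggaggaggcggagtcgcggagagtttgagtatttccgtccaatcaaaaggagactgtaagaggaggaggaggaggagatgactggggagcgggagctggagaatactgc
PSAT1, chr9:78296875-78297124, + strand:
PSAT1: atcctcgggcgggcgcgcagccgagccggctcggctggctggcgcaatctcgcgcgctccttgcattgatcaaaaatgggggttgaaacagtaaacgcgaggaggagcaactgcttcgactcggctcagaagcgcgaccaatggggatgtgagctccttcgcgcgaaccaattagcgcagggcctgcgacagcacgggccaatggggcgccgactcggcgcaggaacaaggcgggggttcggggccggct
A match is a description of these letters, and binding was not measured. MTHFD1L had 3 further windows in the table, of which 2 overlap the one printed and share its E-box and its C/EBP-ATF core, and 1 at an inner start site held neither motif.

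Per kilobase of the canonical transcript, PSAT1 was the most abundant of the 8 enzymes in every group, with 56.7 to 222 CPM per kilobase, and SHMT2 followed with 46.3 to 114 CPM per kilobase. SHMT1, the cytosolic counterpart of SHMT2, was among the scarcest at 8.66 to 15.7 CPM per kilobase. PHGDH varied most between groups, with a highest group mean 5.01 times the lowest. PSAT1 followed at 3.91 times, MTHFD1L at 3.66 times and MTHFD2 at 3.26 times. PSPH varied least, at 1.63 times.

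**Figure D1:**
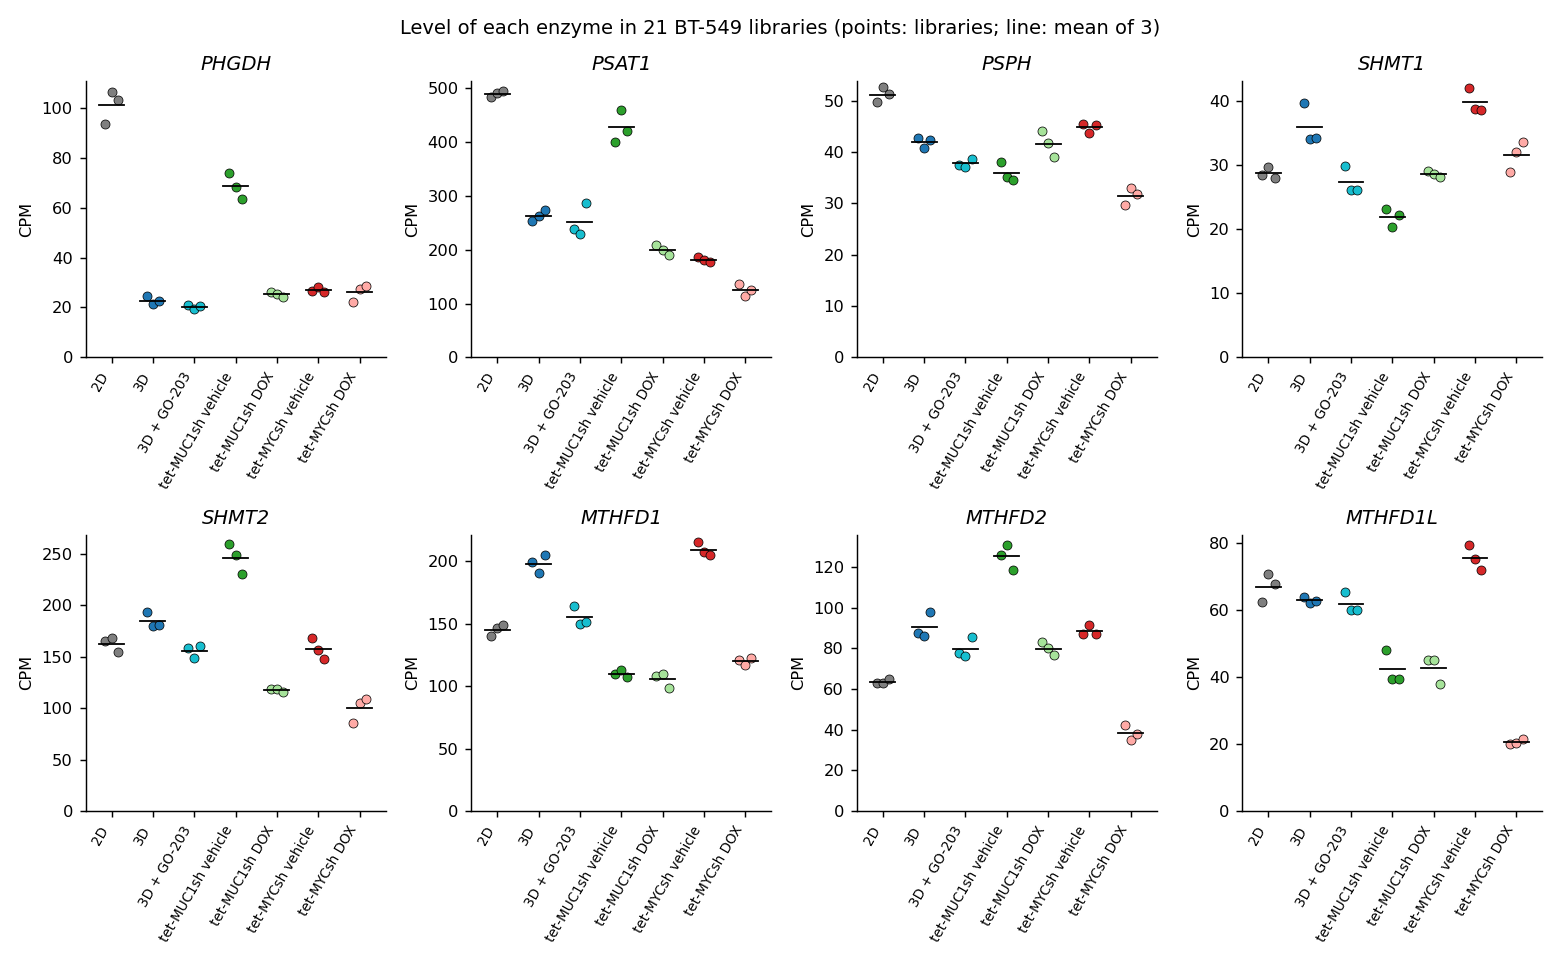
Level of each enzyme in CPM (vertical axis, from 0) in the 3 libraries of each of the 7 groups; points are libraries and lines are group means. PHGDH and PSAT1 were high in 2D cells and in vehicle-treated tet-MUC1shRNA cells, and MTHFD1L was lowest in DOX-treated tet-MYCshRNA cells, at 20.6 CPM.

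The first comparison addressed how serially passaged mammospheres differ from monolayer cells. In 3D vs. 2D cells, PHGDH, PSAT1 and PSPH of serine synthesis were lower, and SHMT1, SHMT2, MTHFD1 and MTHFD2 were higher. The PSPH call was lost with its pseudogene added, and SHMT1 and MTHFD1 turned with the other passage 6 mammospheres. At an adjusted p below 0.1 by edgeR's quasi-likelihood test, 7 of the 8 enzymes were called, 4 higher and 3 lower, beside 63.7% of all genes tested, 32.0% higher and 31.7% lower. The share of enzymes called is thus read against a comparison in which most genes moved. PHGDH was the only enzyme past an absolute log2 fold change of 1.5, a size that 16.2% of all genes passed.

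PHGDH, which oxidizes 3-phosphoglycerate in the committed step of serine synthesis, was at 93.6, 107 and 103 CPM in 2D cells and at 24.4, 21.4 and 22.6 CPM in 3D cells. Each 3D library lay far below each 2D library, with a log2 fold change of -2.16 ± 0.07 (SE, n = 3 per group; edgeR adjusted p = 1.83e-13). PSAT1, the aminotransferase of the following step, went from 483, 491 and 494 CPM to 252, 262 and 273 CPM, a log2 fold change of -0.90 ± 0.05 (edgeR adjusted p = 2.6e-10). PSPH, the phosphatase that releases serine, went from 49.7, 52.6 and 51.2 CPM to 42.7, 40.7 and 42.3 CPM. The PSPH groups did not overlap, a state found in 64.2% of all genes tested. The log2 fold change of PSPH was only -0.29 ± 0.06 (edgeR adjusted p = 0.000466).

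PSPH has a pseudogene, PSPHP1, whose counts came to 34.7% of those of PSPH over the 21 libraries, and how reads that fit both were assigned is not given in the sources used here. PSPHP1 rose in 3D cells, from 9.60 ± 0.334 CPM to 14.6 ± 0.948 CPM (SD, n = 3). With the counts of both genes summed, the PSPH difference was -0.11 on the log2 scale and was no longer called (edgeR adjusted p = 0.121). The pseudogenes of the other enzymes held no more than 0.600% of their parent's counts.

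MTHFD2, the mitochondrial dehydrogenase and cyclohydrolase, rose from 63.0, 63.1 and 64.8 CPM in 2D cells to 87.6, 85.9 and 98.0 CPM in 3D cells (log2 fold change 0.50 ± 0.06, edgeR adjusted p = 3.04e-06). MTHFD1, the trifunctional cytosolic enzyme, rose from 139.7, 147 and 149 CPM to 199, 190.1 and 205 CPM (0.44 ± 0.06, edgeR adjusted p = 3.24e-06). Both groups of libraries were fully separated for these enzymes, as for 64.2% of all genes tested. SHMT1 rose by 0.32 ± 0.07 and SHMT2 by 0.18 ± 0.06 on the log2 scale (edgeR adjusted p = 0.00131 and 0.0128). MTHFD1L, the mitochondrial formyl-tetrahydrofolate synthetase that releases formate, differed by -0.10 with a 95% interval of -0.23 to 0.04 and was not called (edgeR adjusted p = 0.198). It passed without 2D replicate 1, at -0.14 (edgeR adjusted p = 0.0705), with scaling by library size alone, at -0.16 (edgeR adjusted p = 0.0367), and with at least 10 counts in every library, at -0.12 (edgeR adjusted p = 0.0943).

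When vehicle-treated tet-MUC1shRNA mammospheres took the place of the 3D cells, SHMT1 and MTHFD1 lay below the 2D level, with log2 fold changes of -0.39 and -0.40 (edgeR adjusted p = 0.000192 and 4.03e-06). In the vehicle-treated tet-MYCshRNA mammospheres, by contrast, SHMT1 was at 39.8 ± 1.93 CPM and MTHFD1 at 209 ± 5.44 CPM, above the 2D libraries with no overlap. The cytosolic enzymes thus lay above the 2D level in 2 of the 3 unsilenced mammosphere groups, a count with no test. The falls in serine synthesis were much smaller in this setting for PHGDH, at -0.57 in place of -2.16, and for PSAT1, at -0.20 in place of -0.90 (edgeR adjusted p = 1.43e-06 and 0.00397). PSPH was at -0.52 and MTHFD1L was called lower at -0.67 (edgeR adjusted p = 2.26e-06 and 1.16e-06). PSPH and PSPHP1 together were higher in these mammospheres than in 2D cells, at 69.5 ± 0.373 against 60.8 ± 1.71 CPM, so the direction of PSPH turned with the pseudogene added. The mitochondrial MTHFD2 (0.97) and SHMT2 (0.59) stood further above the 2D level on the log2 scale than in 3D cells.

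Around the 8 enzymes, 44 of 60 tested genes of the related lists were called, 30 higher and 14 lower, beside 63.7% of all genes. GLDC, the glycine decarboxylase of the glycine cleavage system, stood out: it was at 6.93 ± 0.940 CPM in 2D cells and at 162 ± 6.76 CPM in 3D cells (log2 fold change 4.55 ± 0.09, edgeR adjusted p = 2.24e-16). SFXN3, a sideroflexin of the mitochondrial serine carrier family, rose by 2.48 on the log2 scale, from 3.42 to 19.3 CPM. The neutral amino acid transporter SLC1A4 fell by 2.23, from 6.14 to 1.30 CPM. Of 5 glycolytic genes around 3-phosphoglycerate, 4 were higher and 1 lower. GAPDH (1.73) and PGK1 (1.68), which act before it, were higher by the most on the log2 scale, PGAM1 and ENO1, which act after it, were at 0.43 and 0.62, and BPGM, which diverts its precursor, was at -1.19. ALDH1L2, which burns mitochondrial formyl-tetrahydrofolate to carbon dioxide, fell from 303 ± 23.1 to 93.6 ± 4.98 CPM (-1.70 ± 0.07, edgeR adjusted p = 1.72e-12). Of the 6 purine synthesis enzymes, 4 were higher, with GART at 0.85, and 1 was lower. In the list of ATF4 and amino acid response genes, 5 of 11 were higher, with TRIB3 and SESN2 at 1.37 each, and 4 were lower, with the cystine transporter SLC7A11 at -2.63. Of the 10 proliferation markers, 7 were lower and 2 higher in 3D cells, where the summed level of the 10 was 2313 to 2352 CPM against 3103 to 3181 CPM in 2D cells. The summed level of 4 mesenchymal markers was 2152 to 2176 CPM in 2D and 8008 to 8493 CPM in 3D cells. In this sum FN1 had by far the widest range, 441 to 13252 CPM over the 21 libraries. VIM, CDH2 and ZEB1 reached at most 2486, 452 and 339 CPM, so the sum does not show that all 4 markers rose. The share of counts on mitochondrial DNA genes was 5.22% to 5.24% in 2D and 2.31% to 2.72% in 3D cells. The part of these in the enzyme differences was not tested.

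**Figure D2:**
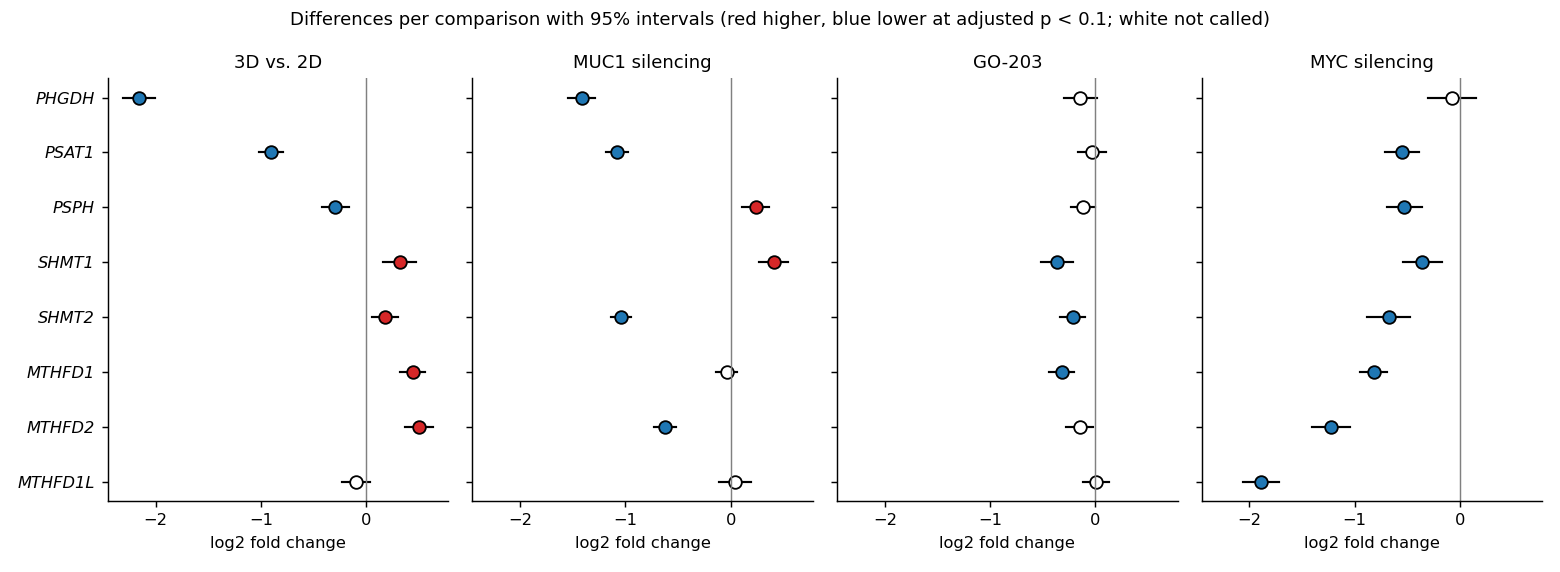
Log2 fold change of each enzyme (horizontal axis) with its 95% interval in the 4 comparisons; red and blue points were called higher and lower at an adjusted p below 0.1 by edgeR, and white points were not called. MTHFD1L was called in MYC silencing, at -1.89, and in none of the other 3 comparisons, and PHGDH was called in 3D vs. 2D cells and in MUC1 silencing.

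The second comparison addressed the dependence of mammosphere cells on MUC1-C. In tet-MUC1shRNA mammospheres, DOX lowered the upper part of serine synthesis and the mitochondrial SHMT2 and MTHFD2, and left MTHFD1 and MTHFD1L near their vehicle levels. Of the 8 enzymes, 6 were called, 4 lower and 2 higher, beside 62.2% of all genes, 31.6% lower and 30.7% higher. None passed an absolute log2 fold change of 1.5, as 8.82% of all genes did.

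PHGDH was at 73.9, 68.4 and 63.6 CPM with vehicle and at 26.1, 25.6 and 24.2 CPM with DOX (log2 fold change -1.42 ± 0.06, edgeR adjusted p = 4.67e-14). Its groups did not overlap, a state found in 62.4% of all genes tested. PSAT1 went from 401, 459.9 and 421 CPM to 208, 199 and 191 CPM (-1.08 ± 0.05, edgeR adjusted p = 1.51e-13). PSPH went the other way, from 38.1, 35.1 and 34.6 CPM to 44.1, 41.7 and 39.0 CPM, a small difference of 0.24 ± 0.06 (edgeR adjusted p = 0.00218). PSPHP1 was at 33.6 ± 1.66 CPM with vehicle, nearly as high as PSPH itself, and fell by 0.96 on the log2 scale. Summed over both genes, the difference turned to -0.22 (edgeR adjusted p = 0.000587), against the direction of PSPH alone. Reads shared by the gene and its pseudogene were not measured, and a change of PSPHP1 itself cannot be told apart from their assignment.

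SHMT2, the mitochondrial serine hydroxymethyltransferase, fell from 259.8, 249 and 230.4 CPM to 118, 118 and 116 CPM (log2 fold change -1.04 ± 0.05, edgeR adjusted p = 9.28e-14). SHMT1 rose from 23.2, 20.4 and 22.1 CPM to 29.0, 28.6 and 28.1 CPM (0.41 ± 0.07, edgeR adjusted p = 1.77e-05). These isozymes thus moved in opposite directions, each with groups that did not overlap, as for 62.4% of all genes tested. MTHFD2 fell from 126, 131 and 119 CPM to 82.9, 80.1 and 76.6 CPM (-0.63 ± 0.05, edgeR adjusted p = 7.68e-10). MTHFD1 and MTHFD1L overlapped between groups, with differences of -0.04 (95% interval -0.14 to 0.06) and 0.04 (-0.12 to 0.20). Scaling by library size alone, which raised the median of all genes from 0.02 to 0.19, gave called rises of 0.13 for MTHFD1 and 0.21 for MTHFD1L by edgeR, and MTHFD1L also passed without vehicle replicate 1 (0.13; edgeR adjusted p = 0.0951). The share of counts on mitochondrial DNA genes was 2.60% to 2.78% with vehicle and 6.36% to 6.72% with DOX. With those genes left out of the scaling, 6 enzymes were called as before.

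Of the related genes, 51 of 61 were called, 18 higher and 33 lower, beside 62.2% of all genes. Most of the ATF4 list fell, 9 of 11 genes. ASNS, the asparagine synthetase, was at -2.08 (from 7.55 to 1.79 CPM), VLDLR at -1.50, TRIB3 at -1.45 and ATF4 itself at -0.75 on the log2 scale. The other 2, SLC7A11 (0.84) and CEBPB (0.53), rose. The list was drawn up with earlier results of these libraries known. Of the 5 glycolytic genes, 4 fell, with GAPDH at -2.36 and PGK1 at -1.63 before 3-phosphoglycerate and PGAM1, which consumes it, at -2.55. SLC1A5, a glutamine and neutral amino acid transporter, fell from 283 ± 13.9 to 118 ± 6.50 CPM (-1.23 ± 0.05, edgeR adjusted p = 8.78e-15). SFXN1, the mitochondrial serine importer, fell from 216 ± 3.92 to 97.3 ± 4.21 CPM (-1.13 ± 0.04, edgeR adjusted p = 7.7e-15). In the folate list 8 of 13 rose, among them MTHFD2L, a paralog of MTHFD2 (0.87), and ALDH1L2 was among the 3 that fell (-0.61). Of the 6 purine synthesis enzymes, 4 fell, with PPAT at -0.39, and 1, ADSL, rose (0.81). Of the 10 proliferation markers, 5 fell and 2 rose, with a summed level of 1711 to 1764 CPM with vehicle and 1548 to 1607 CPM with DOX. The summed level of the 5 epithelial markers was 0.0522 to 0.141 CPM with vehicle and 2.38 to 2.72 CPM with DOX. That of the 4 mesenchymal markers, in which FN1 had the widest range as given above, was 11358 to 12429.8 CPM with vehicle and 8380 to 8731 CPM with DOX. The part of these lists in the enzyme differences was not tested.

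The unsilenced mammosphere groups also differed from each other in these enzymes. All 8 enzymes were called between vehicle-treated tet-MUC1shRNA cells and 3D cells, both at passage 6, beside 62.6% of all genes, and PHGDH, higher by 1.58 ± 0.07 on the log2 scale, was the one enzyme past 1.5, beside 8.57% of all genes (edgeR adjusted p = 1.79e-11). PSAT1 (0.70), MTHFD2 (0.46) and SHMT2 (0.41) were higher as well, and MTHFD1 (-0.85), SHMT1 (-0.72), MTHFD1L (-0.58) and PSPH (-0.23) were lower. PSPHP1 was higher by 1.19, and PSPH and PSPHP1 together stood at 69.5 ± 0.373 CPM against 56.5 ± 1.69 CPM in 3D cells, the opposite direction from PSPH alone. With DOX, PHGDH in the tet-MUC1shRNA line came to 25.3 ± 0.972 CPM, beside 22.8 ± 1.52 CPM in 3D cells that carried no shRNA. All 8 were also called between the vehicle groups of the tet-MYCshRNA and tet-MUC1shRNA lines, beside 66.8% of all genes, with PHGDH at -1.32 and PSAT1 at -1.22 and none past 1.5, beside 10.6% of all genes. These last groups differ in passage (8 and 6) as well as in line, which cannot be told apart. MUC1 itself was lower in the tet-MUC1shRNA vehicle cells (90.4 ± 9.64 CPM) than in 3D cells (207 ± 21.8 CPM), as was MYC (245 ± 8.54 against 581 ± 24.9 CPM).

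**Figure D3:**
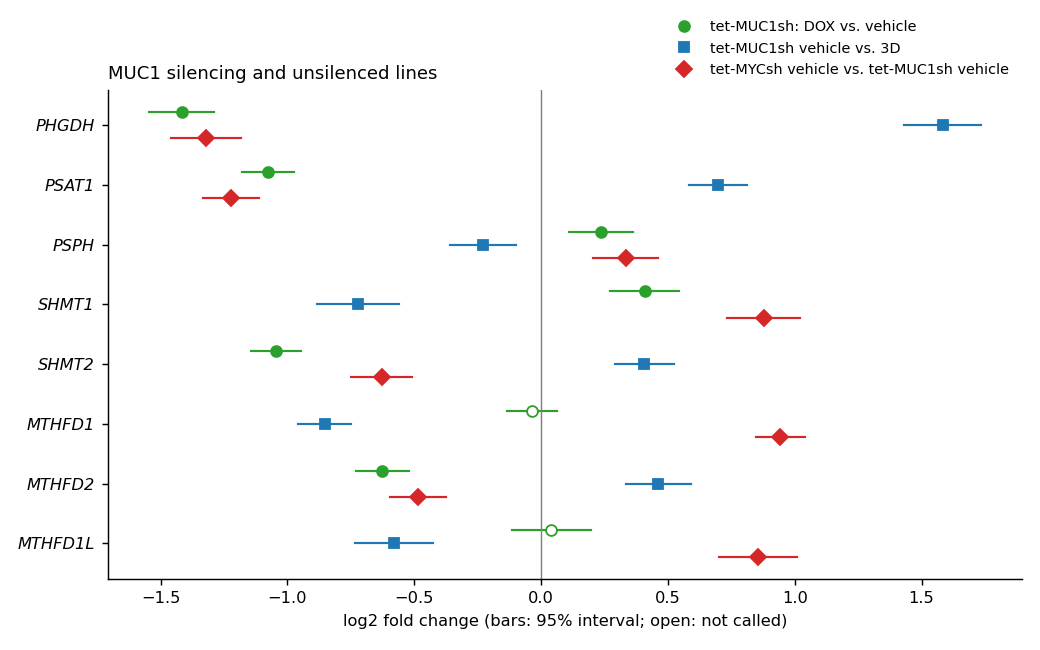
Log2 fold changes with 95% intervals for MUC1 silencing (green circles), vehicle-treated tet-MUC1shRNA cells vs. 3D cells (blue squares) and the vehicle groups of both lines (red diamonds); open symbols were not called. All 3 comparisons share the tet-MUC1shRNA vehicle libraries, in which PHGDH stood 1.58 above 3D cells and fell by 1.42 with DOX.

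The inhibitor arm asked whether GO-203 acts on the same genes as silencing. With GO-203, 3 of the 8 enzymes were called, all lower, beside 24.1% of all genes in either direction and 12.9% lower. None passed 1.5, beside 0.757% of all genes. This comparison shares the control 3D libraries with 3D vs. 2D cells. SHMT1 went from 39.6, 34.0 and 34.1 CPM in 3D cells to 29.8, 26.1 and 26.0 CPM with GO-203 (log2 fold change -0.36 ± 0.07, edgeR adjusted p = 0.00127). MTHFD1 went from 199, 190.1 and 205 CPM to 164, 149.7 and 152 CPM (-0.32 ± 0.06, edgeR adjusted p = 0.000362), and SHMT2 from 194, 180.2 and 181 CPM to 158, 149 and 160.0 CPM (-0.22 ± 0.06, edgeR adjusted p = 0.00981). The treated libraries lay below all control ones for these 3 enzymes.

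MTHFD2 missed the threshold narrowly at -0.15 ± 0.06 (edgeR adjusted p = 0.103), and passed it under 8 alternatives, among them DESeq2 (adjusted p = 0.0603), without GO-203 replicate 3 (edgeR adjusted p = 0.0783) or without 3D replicate 2 (edgeR adjusted p = 0.0806). PHGDH and PSAT1, which fell most with MUC1 silencing, differed by -0.14 (95% interval -0.30 to 0.01) and -0.03 (-0.17 to 0.10). PSAT1 libraries with GO-203 were spread from 229 to 287 CPM and overlapped the control ones. PSPH was at -0.12 (-0.24 to -0.002) and MTHFD1L at 0.01 (-0.11 to 0.13), and neither was called. The groups did not overlap for 6 of the 8 enzymes, a state found in 33.1% of all genes tested. The MUC1 transcript was not lower but called higher with GO-203 (log2 fold change 0.33, edgeR adjusted p = 0.00191). It stood at 207 ± 21.8 CPM in control cells and at 255 ± 10.2 CPM with the peptide.

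Among the related genes, 25 of 59 were called with GO-203, 6 higher and 19 lower, beside 24.1% of all genes. The thymidylate synthase TYMS (-0.64), the reduced folate carrier SLC19A1 (-0.47), GLDC (-0.48) and VLDLR (-0.51) were lower on the log2 scale, and SLC7A11 was higher (0.71). Of the 5 glycolytic genes around 3-phosphoglycerate, 4 were lower, with PGK1 at -0.44, GAPDH at -0.38 and PGAM1 at -0.28. Of the 6 purine synthesis enzymes, 2 were lower, PFAS and PAICS, at -0.15 each. Of the 10 proliferation markers, 9 were lower, with a summed level of 1747 to 1962 CPM against 2313 to 2352 CPM in control 3D cells. The mitochondrial DNA share was 3.344% to 4.396% with GO-203 against 2.31% to 2.72%. Whether the falls of SHMT1, MTHFD1 and SHMT2 go with these differences was not tested.

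The difference between the effects of MUC1 silencing and of GO-203 was tested as an interaction over 12 libraries. It was called for 7 of the 8 enzymes, beside 44.9% of all genes, and none passed 1.5, beside 8.59%. PHGDH (-1.27 ± 0.09), PSAT1 (-1.04 ± 0.09), SHMT2 (-0.82 ± 0.07) and MTHFD2 (-0.47 ± 0.08) stood lower with silencing relative to the peptide. SHMT1 (0.78 ± 0.10), PSPH (0.36 ± 0.08) and MTHFD1 (0.29 ± 0.07) stood higher. With PSPHP1 added, PSPH was at -0.22 with silencing and at -0.11 with the peptide, and the interaction was not tested on the sum. MTHFD1L differed by 0.04, with a 95% interval of -0.18 to 0.25. The silenced line and the unmodified 3D cells started from different levels, as given above, so line and treatment cannot be told apart in this contrast.

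The last comparison addressed the dependence of the mammosphere cells on MYC. In tet-MYCshRNA mammospheres, DOX lowered all 5 enzymes of the folate arm, in both compartments, and PHGDH was not called. Of the 8 enzymes, 7 were called, all lower, beside 58.5% of all genes in either direction and 28.1% lower. Without DOX replicate 1, 7 enzymes were called lower as well, from -0.30 for SHMT1 to -1.87 for MTHFD1L on the log2 scale. The median log2 fold change of the 8 enzymes with all libraries was -0.62, beside 0.01 over all 19951 genes tested.

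MTHFD1L fell most. It was at 79.5, 75.2 and 72.0 CPM with vehicle and at 19.9, 20.4 and 21.6 CPM with DOX, a log2 fold change of -1.89 ± 0.08 (edgeR adjusted p = 3.03e-08), the only one past 1.5, as 10.5% of all genes were. MTHFD2 went from 86.9, 91.4 and 87.1 CPM to 42.4, 34.9 and 37.8 CPM (-1.23 ± 0.08, edgeR adjusted p = 9.17e-07). MTHFD1 went from 215, 207 and 205 CPM to 121, 117 and 122 CPM (-0.82 ± 0.06, edgeR adjusted p = 1.13e-06). For these 3 enzymes the DOX libraries lay far below the vehicle libraries, beside a fall of MYC itself of 0.62 on the log2 scale.

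SHMT2 went from 168, 157 and 148 CPM to 85.7, 105 and 109 CPM (-0.68 ± 0.09, edgeR adjusted p = 0.000113, and -0.58 without DOX replicate 1), and SHMT1 from 42.0, 38.8 and 38.5 CPM to 28.9, 32.0 and 33.5 CPM (-0.36 ± 0.08, edgeR adjusted p = 0.00456). In the serine pathway, PSAT1 went from 186, 181 and 177 CPM to 136, 115 and 124 CPM (-0.55 ± 0.07, edgeR adjusted p = 0.000106) and PSPH from 45.5, 43.6 and 45.2 CPM to 29.7, 32.9 and 31.7 CPM (-0.53 ± 0.08, edgeR adjusted p = 0.000181). PSPH kept its fall with PSPHP1 added, at -0.51. PHGDH was at 26.7, 28.3 and 26.4 CPM with vehicle and at 22.3, 27.3 and 28.8 CPM with DOX. Its groups overlapped, with a log2 fold change of -0.08 and a 95% interval of -0.30 to 0.15, and without DOX replicate 1, its lowest library, the value was 0.02.

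With MYC silencing, 49 of 62 related genes were called, 17 higher and 32 lower, beside 58.5% of all genes in either direction and 28.1% lower. All 6 purine synthesis enzymes fell. PFAS went from 134 ± 9.28 to 38.1 ± 4.96 CPM (-1.84 ± 0.10, edgeR adjusted p = 1.97e-07), GART, which uses formyl-tetrahydrofolate directly, was at -1.41 and PPAT, the first committed enzyme, at -1.33. GLDC fell from 163 ± 5.41 to 39.4 ± 1.84 CPM (-2.07 ± 0.07, edgeR adjusted p = 8.2e-09). The folate list fell in 9 of 14 cases, with SLC46A1, the proton-coupled folate transporter, at -1.63, SLC19A1 at -1.54 and TYMS at -1.34. SLC46A1 was scarce, at 2.13 CPM with vehicle and 0.696 CPM with DOX. In the ATF4 list 8 of 11 genes rose, with SLC7A11 at 1.60, CHAC1 at 1.19 (from 2.74 to 6.34 CPM) and SLC3A2 at 0.91. The 2 that fell were VLDLR (-0.65) and ATF4 itself, at -0.17 (edgeR adjusted p = 0.084) with groups that overlapped. SLC1A4 rose by 1.96 on the log2 scale, from 1.49 to 5.80 CPM. Of the 5 glycolytic genes around 3-phosphoglycerate, 3 fell, with PGK1 at -0.95, PGAM1 at -0.76 and ENO1 at -0.31. All 10 proliferation markers fell, with a summed level of 2977 to 3038 CPM with vehicle and 1602 to 1656 CPM with DOX. The mesenchymal markers, in whose sum FN1 had the widest range, together stood at 7799 to 8082 CPM with vehicle and 13967 to 15671 CPM with DOX. Their part in the falls of the enzymes was not tested.

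**Figure D4:**
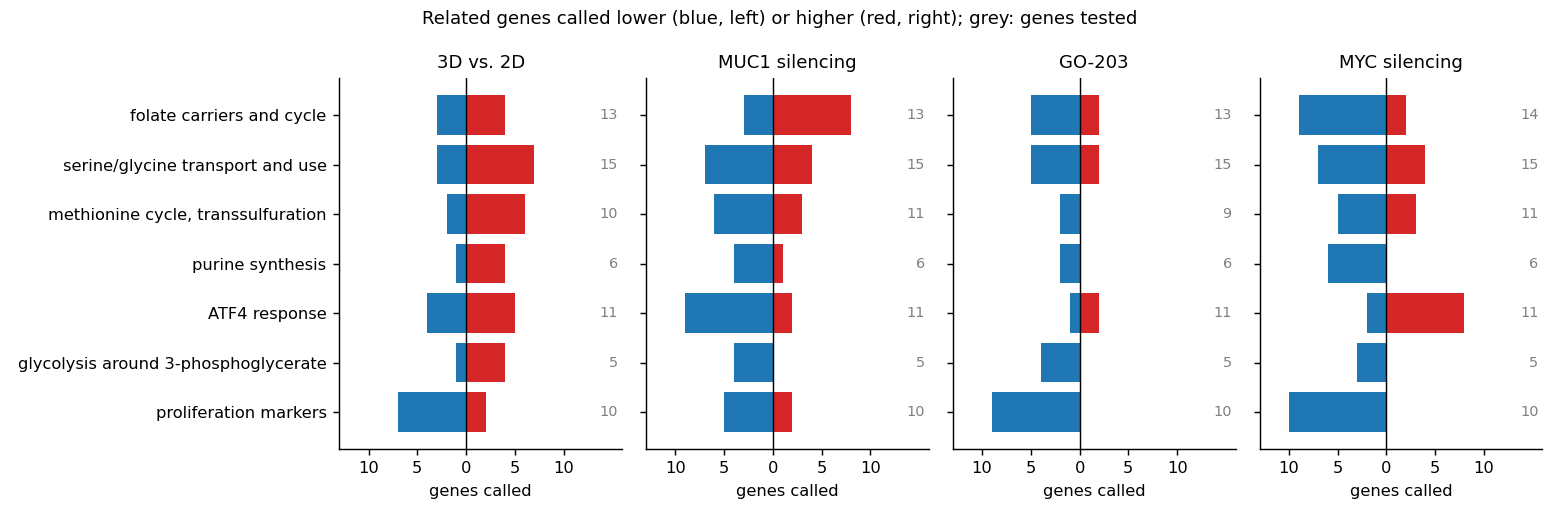
Number of genes of each related list called lower (blue bars to the left) or higher (red bars to the right) in the 4 comparisons, with the number tested in grey. The ATF4 list fell in 9 of 11 genes with MUC1 silencing and rose in 8 of 11 with MYC silencing.

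MUC1 silencing and MYC silencing share no library, and the difference of their effects was tested directly. It was called for all 8 enzymes, beside 52.9% of all genes, and MTHFD1L was the one past 1.5, beside 16.2%. MTHFD1L had the widest gap, 1.92 ± 0.12 on the log2 scale (edgeR adjusted p = 6.46e-10), followed by PHGDH at -1.36 ± 0.12 (edgeR adjusted p = 6.25e-08). MTHFD1 (0.77), PSPH (0.75), SHMT1 (0.75) and MTHFD2 (0.59) stood higher with MUC1 silencing relative to MYC silencing, and PSAT1 (-0.54) and SHMT2 (-0.38) stood lower. The PSPH value carries the pseudogene caveat given above. PSAT1, MTHFD2 and SHMT2 fell in both comparisons, by different amounts.

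Ratios of isozymes within a library do not depend on how libraries are scaled. Counts were divided by the length of each canonical transcript. SHMT2 to SHMT1 was 13.1, 14.3 and 12.2 in vehicle-treated tet-MUC1shRNA cells and 4.79, 4.84 and 4.83 with DOX. In the other 5 groups it lay between 3.47 and 7.21, so the tet-MUC1shRNA vehicle cells stood apart from all of them. The change with DOX was -1.45 on the log2 scale, with an exact two-sided permutation p of 0.1, the smallest that 3 against 3 libraries can give. MYC silencing moved the same ratio by -0.33, from 4.69, 4.73 and 4.50 to 3.47, 3.84 and 3.80 (exact permutation p = 0.1).

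MTHFD2 to MTHFD1 was 0.823, 0.832 and 0.790 in the tet-MUC1shRNA vehicle cells, fell to 0.549, 0.524 and 0.555 with DOX, and was 0.404 or less in every library of the other 5 groups. MTHFD1L to MTHFD1 was 0.337, 0.331 and 0.321 in the tet-MYCshRNA vehicle cells and 0.151, 0.160 and 0.161 with DOX, a change of -1.07 on the log2 scale (exact permutation p = 0.1). With MUC1 silencing the same ratio overlapped between groups (0.08; exact permutation p = 0.6). Over the 12 ratio tests, the 9 with a p of 0.1 had a Benjamini-Hochberg adjusted p of 0.133, and no raw p below 0.1 is possible with 3 libraries a group.

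**Figure D5:**
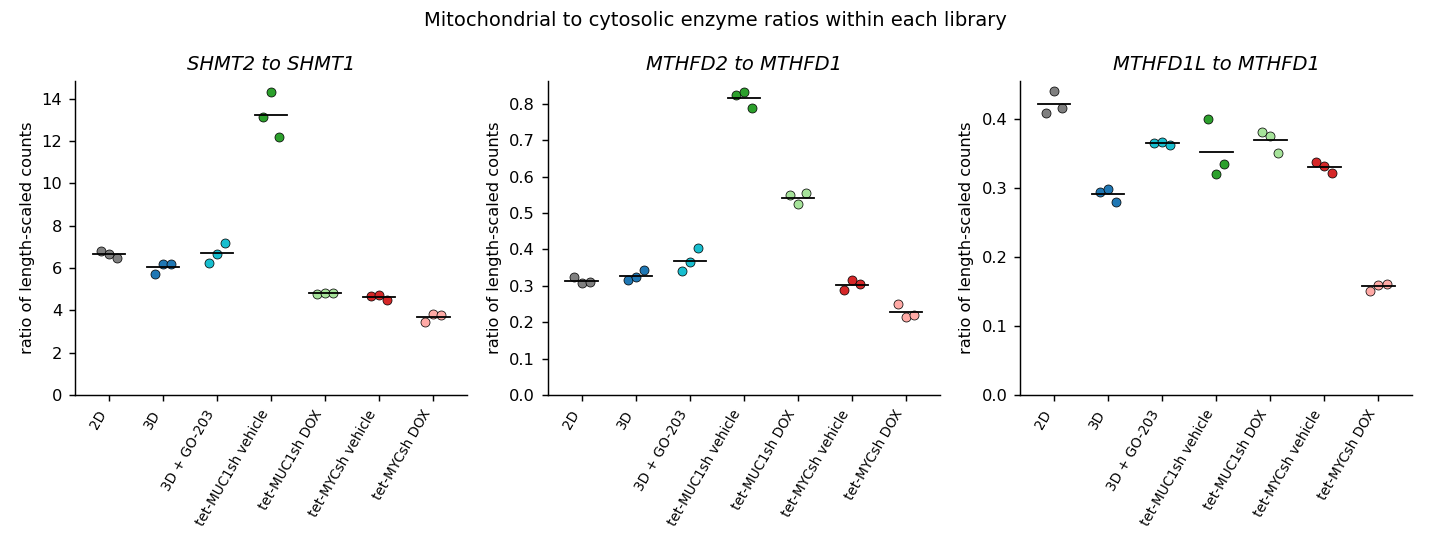
Ratio of a mitochondrial to a cytosolic enzyme (vertical axis, from 0) in each of the 21 libraries, from counts divided by canonical transcript length; lines are group means. SHMT2 to SHMT1 averaged 13.2 in tet-MUC1shRNA vehicle cells and 4.82 with DOX, and MTHFD1L to MTHFD1 averaged 0.157 in DOX-treated tet-MYCshRNA cells.

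In the order of group means, PHGDH fell into a high level in 2D cells, an intermediate one in tet-MUC1shRNA vehicle cells, and a low one in the other 5 groups. The tet-MYCshRNA vehicle, tet-MYCshRNA DOX, tet-MUC1shRNA DOX and 3D groups overlapped each with the next. PSAT1 descended over the 7 groups from 2D cells to DOX-treated tet-MYCshRNA cells, with 3D and GO-203-treated cells as the only neighbours that overlapped. MTHFD1 likewise had 1 overlapping pair, the vehicle and DOX groups of the tet-MUC1shRNA line, at the low end. SHMT1 had 4 overlapping pairs of neighbours, the most of any enzyme. MTHFD2 was highest in tet-MUC1shRNA vehicle cells and lowest in tet-MYCshRNA DOX cells, as was SHMT2.

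Over the 7 group means, which share libraries with the comparisons above, SHMT2 and MTHFD2 (Pearson's r = 0.84), PSPH and MTHFD1L (0.81), PHGDH and PSAT1 (0.79) and SHMT1 and MTHFD1 (0.77) ran most alike, and PSAT1 and SHMT1 were the most opposed (-0.55). With PSPHP1 added, PSPH and MTHFD1L were at 0.57 and PSPH ran closest to MTHFD2 (0.86). These are descriptions over 7 points. The genes most alike to each enzyme over the 21 libraries, of 13584 compared, were no other member of the 8. For PHGDH they were CALU (0.97), LARP6 and TMTC2, for PSAT1 ANKRD17 (0.98), LINC00662 and MZT1, and for MTHFD2 CSNK2A1 (0.99), PPAT (0.98) and SNHG1. MTHFD1 ran closest to SF3A3 (0.98), SUPT16H and THAP4, and MTHFD1L to ABCC4 (0.97), CMSS1 and NAA15. SHMT2 ran closest to ASIC1 (0.97), NSMF and STX10, SHMT1 to HSPH1 (0.94), ABCF1 and ACTN1, and PSPH to LRRC8D (0.96), WWC1 and FANCD2.

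Parts of the exons of MTHFD2 (14.1% of bases), MTHFD1 (11.1%), SHMT2 (8.4%) and SHMT1 (2.8%) lie opposite another gene, and the strand setting of the counting is not given in the sources used here. In the files' GRCh38 build, with GENCODE release 44 positions, the 8 genes lie on 8 chromosomes. PHGDH lies at chr1:119648411-119744218 (+), PSAT1 at chr9:78297125-78330093 (+), PSPH at chr7:56011051-56051604 (-) and SHMT1 at chr17:18327860-18363563 (-). SHMT2 lies at chr12:57229573-57234935 (+), MTHFD1 at chr14:64388031-64463457 (+), MTHFD2 at chr2:74186172-74217565 (+) and MTHFD1L at chr6:150865679-151101887 (+).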

How the data were processed

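RNA was extracted from 21 BT-549 cultures, 3 per group, and stranded mRNA libraries were sequenced as paired ends. The authors aligned reads to GRCh38 with STAR and counted them per gene with featureCounts. They deposited raw counts, which were used as deposited. The submitters' processing notes name STAR 2.7.3a and CASAVA 1.8.2. The annotation release, strand setting and treatment of multimapped reads are not given in the sources used here. Blank cells (4952 to 7587 genes per block of libraries) were read as 0. The GO-203 block also lists 2851 genes with a total of 0. Of the 42339 identifiers, 42252 matched a symbol in GENCODE release 44.

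Groups came from the sample labels. Each comparison was fitted on its own libraries with edgeR 4.0.16 in R 4.3.3 (filterByExpr, TMM factors, quasi-likelihood test), with Benjamini-Hochberg adjustment over all genes tested. A gene counted as called below an adjusted p of 0.1, and a stricter call added an absolute log2 fold change above 1.5. Standard errors are the absolute log2 fold change divided by the square root of F. CPM values were scaled by TMM factors over all 21 libraries. Ratios within libraries were tested with an exact permutation test, two-sided. The fits were tested on simulated data with 200 changed genes. Libraries of a group differed beyond counting noise, most of all tet-MYCshRNA DOX replicate 1. With library totals of 38026597 to 99751717, the spread between samples sets the precision.

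Deviations of libraries with the same replicate number correlated at -0.18 to 0.08 over the 6 paired comparisons, so the numbers did not pair the samples and no block was used. DESeq2 1.42.0, other scalings and filters, all 21 libraries in 1 fit, the replicate block and leaving out each replicate were the alternatives. Summing PSPH and PSPHP1 was added after the data were seen. The members and related lists were chosen with earlier results of these data known. Genes to name were drawn from the 3 largest changes of each list in a comparison, with a mean count of at least 100. Not all of these are named, and none of the methionine cycle list is. Others are named to complete a pathway or to give both directions of a list. Protein sequences were not analysed here.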

Additional observations from a re-analysis of the deposited data

Results flagged for a closer look

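The effect of silencing differed between the tet-MUC1shRNA and tet-MYCshRNA lines for all 8 enzymes by edgeR's interaction test. The values are log2 differences, MUC1 silencing minus MYC silencing. They were -1.36 for PHGDH, -0.54 for PSAT1, 0.75 for PSPH, 0.75 for SHMT1, -0.38 for SHMT2, 0.77 for MTHFD1, 0.59 for MTHFD2 and 1.92 for MTHFD1L. PSPH and SHMT1 moved in opposite directions in these lines, up with MUC1 silencing (0.24 and 0.41) and down with MYC silencing (-0.53 and -0.36), but the PSPH rise turned into a fall when PSPHP1 was added.

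MUC1 silencing also differed from GO-203 for 7 enzymes by the same kind of test. The log2 differences, silencing minus GO-203, were -1.27 for PHGDH, -1.04 for PSAT1, 0.36 for PSPH, 0.78 for SHMT1, -0.82 for SHMT2, 0.29 for MTHFD1 and -0.47 for MTHFD2. The PSPH value carries the same limit of PSPHP1. SHMT1 rose with silencing and fell with the peptide (-0.36), and PHGDH fell with silencing while its difference with the peptide was -0.14 and not called. Passage, line and the level before treatment differ between the arms of the first contrast, and line and starting level between those of the second, and these cannot be told apart from the treatments.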

How the results depend on the processing

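The number of enzymes called stayed within 1.5 times the main count under every alternative except the stricter call with an absolute log2 fold change above 1.5. That call left 1 enzyme (PHGDH) in 3D vs. 2D cells and in tet-MUC1shRNA vehicle vs. 3D cells, 1 (MTHFD1L) in MYC silencing and in the interaction of MUC1 and MYC silencing, and 0 in MUC1 silencing, GO-203, the 2 vehicle groups and the interaction with GO-203, by edgeR. Of the related genes it left 10, 8, 1 and 10 in the 4 comparisons in the order of the report. Leaving out 1 replicate gave 7 to 8, 6 to 7, 3 to 4 and 7 to 7 enzymes and 44 to 47, 46 to 51, 20 to 23 and 46 to 51 related genes in the same order, 8 to 8 in both comparisons of unsilenced groups, and 8 to 8 and 7 to 7 in the interactions.

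Of 460 refits of single enzymes, 430 kept direction and call, 14 gained a call, 1 lost it and 15 turned direction. The cause was not tested. With tet-MUC1shRNA vehicle cells in place of 3D cells, SHMT1 turned to -0.39 and MTHFD1 to -0.40. With PSPHP1 added, PSPH turned to -0.22 in MUC1 silencing. The others were values near 0 in the main fit. In MUC1 silencing, MTHFD1 was at 0.13 with library size alone and 0.0138 with at least 10 counts in every library, and ran from -0.0527 to 0.0035 as each replicate was left out, and MTHFD1L ran from -0.0115 to 0.1332. With GO-203, PSAT1 ran from -0.1243 to 0.0184 as each replicate was left out and MTHFD1L from -0.0362 to 0.0387, and MTHFD1L was at -0.0021 with no filter and -0.0235 with all 21 libraries. In MYC silencing, PHGDH ran from -0.1459 to 0.0212, turning without DOX replicate 1.

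With the replicate number as a block, which the data did not bear out as a pairing, 7, 6, 4 and 7 enzymes and 44, 49, 27 and 46 related genes were called in the 4 comparisons, 8 and 8 enzymes between unsilenced groups, and 8 and 7 in the interactions. The added call was MTHFD2 with GO-203. No other call of an enzyme changed in the 4 comparisons. In MYC silencing the correlations by number were -0.18, -0.003 and -0.13, and no other pairing was tried.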
